A study of Mus musculus with 25 samples.

Results

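The 25 gastrocnemius muscles of the study fell into 2 separate classes by their level of Kbtbd12, and the comparison here is between 19 mice with a high level and 6 mice with a low level, which together make up all 25 mice. The classes were chosen by the measured values themselves: a mouse was counted as high when its Kbtbd12 value was above a log2 CPM of 5.4 (the log2 of reads scaled to a common library size) and as low when it was at or below that value. All mice were males of the SAMP8 line, which ages early, and were 8 months old when dosing began. Of the 11 control mice, which were given the vehicle, 7 were high and 4 were low. Of the 14 mice given thymol, a phenolic compound of thyme and oregano, 12 were high and 2 were low. Thymol was given by oral gavage at 20 mg per kg of body weight per dosing day for 3 months. In the paper, doses were given on most, not all, days of each week. The shares of high mice in control and thymol mice were not told apart (two-sided Fisher's exact test, p = 0.35, 25 mice). Each mouse gave 1 library of QuantSeq 3′ mRNA sequencing, which reads the ends of polyadenylated transcripts, and mice are named by treatment and the last number of their label.

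Kbtbd12 encodes a protein with a BTB domain and kelch repeats. Proteins of this family commonly bind the scaffold cullin-3 through the BTB domain and hold a substrate with the kelch repeats, so that a ubiquitin ligase can mark the substrate, often for breakdown by the proteasome. Several relatives, among them Klhl40 and Klhl41, are known for their part in building and keeping the sarcomere of striated muscle.

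Kbtbd12 lies on chromosome 6 of the mouse genome (GRCm38) from 88545114 to 88637950 on the minus strand, and no other annotated gene overlaps it (GENCODE M21). Of its 7 annotated transcripts, the 2 longer protein-coding ones end at 88545114 and 88545120, which is where a 3′ read of the full gene would fall. In the last 500 bases of all its protein-coding transcripts, 0 of 946 31-base words were found anywhere in a transcript of another gene. The promoter window that RefSeq gives for Kbtbd12 (GRCm38.p6, chr6:88627380-88627679, minus strand, 250 bases before to 50 after the start) is shown because it is the regulatory sequence next to the gene that defines the classes. Capitals mark an E-box (CANNTG, the letters bound by the MyoD family among others) and the run TATTTATA, which matches the core bound by MEF2 proteins and holds TATAAA on the other strand.
Kbtbd12 promoter: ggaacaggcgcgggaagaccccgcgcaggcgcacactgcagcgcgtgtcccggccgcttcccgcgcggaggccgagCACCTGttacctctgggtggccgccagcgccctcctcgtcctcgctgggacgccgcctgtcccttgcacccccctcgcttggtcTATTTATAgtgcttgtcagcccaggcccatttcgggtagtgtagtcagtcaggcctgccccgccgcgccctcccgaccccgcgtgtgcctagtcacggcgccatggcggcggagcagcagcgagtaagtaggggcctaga
The window held 32 CpG pairs and was 69.7% G and C. Searched on both strands, an E-box stood in 72.3% of 32851 promoter windows of the same length, TATAAA in 13.6% and TATTTATA in 1.70%. The window lies inside the longer GENCODE gene, and distances to Kbtbd12 were measured from the GENCODE start at 88637950. These letters are those of the reference strain and not of SAMP8, and matches are descriptions of the window and not of binding.

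In the low class, Kbtbd12 ranged from 4.37 to 4.84 log2 CPM with a median of 4.53 (mean 4.56 ± 0.18, SD, n = 6). In the high class it ranged from 5.87 to 6.41 with a median of 6.04 (mean 6.07 ± 0.16, SD, n = 19). The means differed by 1.51 on the log2 scale, or 2.85-fold, and no value lay in the 1.03 between the classes. The mouse just below the threshold was Control 15 at 4.84 and the mouse just above it was Thymol 6 at 5.87. Since these values formed the classes, the difference is a description and carries no test.

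**Figure D1:**
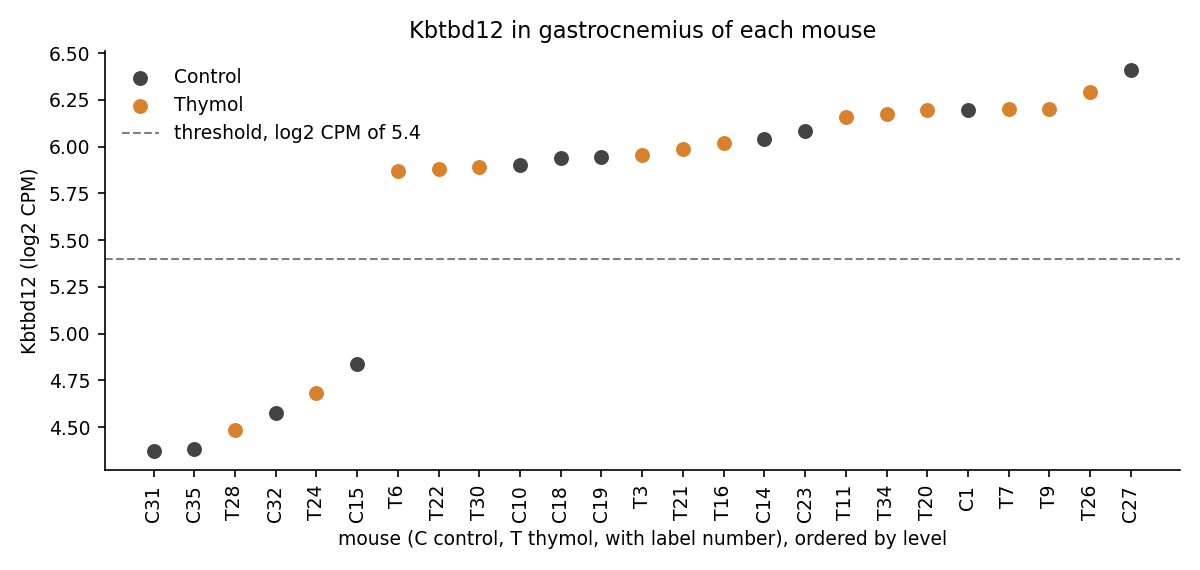
Level of Kbtbd12 (log2 CPM, vertical axis) in each of the 25 mice, ordered from lowest to highest, with control mice in grey and thymol mice in orange. The 6 low mice sit between 4.37 and 4.84, the 19 high mice between 5.87 and 6.41, and both treatments occur in both classes.

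Within a class, the treatments lay close together. High control mice averaged 6.07 ± 0.18 log2 CPM (SD, n = 7) and high thymol mice 6.07 ± 0.15 (SD, n = 12). The gene was well covered, with 149 to 225 reads in low mice and 329 to 670 in high mice, and it ranked 1740 of 8829 genes by mean level. Control 27, the library with the fewest reads, held the highest value of all (6.41, from 373 reads). Mice with the same first number in their label, whose meaning the labels do not give, fell on both sides: among those numbered 7, Control 27 and Thymol 26 were high and Thymol 28 was low.

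As wholes, libraries of different classes correlated over about the same range as those within the high class. Depth ranged from 7222414 to 9463418 reads in low mice and from 4463818 to 8845982 in high mice, a log2 difference, high minus low, of -0.17 (two-sided exact permutation test over 177100 regroupings, p = 0.054), and its part in the results was not tested. Mitochondrial transcripts took a median of 27.1% of reads in low mice and 26.3% in high mice. Correlations between libraries of different classes ran from 0.939 to 0.973 (114 pairs), those within the high class from 0.936 to 0.973 (171 pairs), and those within the low class from 0.960 to 0.974 (15 pairs). The tissue label fitted the defining markers of skeletal muscle, with Acta1, the sarcomeric actin, at 14.5 log2 CPM or more in each of the 25 mice and Myh4, the fastest myosin, with a lowest value of 14.4. In bulk tissue, fewer cells of a type and less RNA per cell cannot be told apart.

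The other 8828 genes were compared between the classes with treatment as a covariate (limma, moderated with a mean-variance trend, two-sided, Benjamini-Hochberg adjustment over the 8828 genes). A single gene, Mndal, passed an adjusted p of 0.05, which is 0.0113% of the genes tested. An unadjusted p under 0.05 was found for 411 genes (4.66%). The high class was higher for 219 of them (2.48% of the genes tested) and lower for 192 (2.17%). The number of genes for which the 2 classes did not overlap, as they do not for Kbtbd12, was 0 (0%). Over all genes the median log2 difference, high minus low, was -0.0045 and the median standard error 0.13.

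No neighbour of Kbtbd12 passed the test. Of the 28 other measured genes that start within 2 Mb of its start, 0 were called and 0 had an unadjusted p under 0.05 (limma), against 4.66% of all genes. Their differences ran from -0.36 for Chchd6 to 0.28 for Anxa4 with a median of 0.01, and 15 of the 28 were positive. Their 95% intervals all lay between -0.87 and 0.80, below the 1.51 that separates the classes in Kbtbd12 itself.

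**Figure D2:**
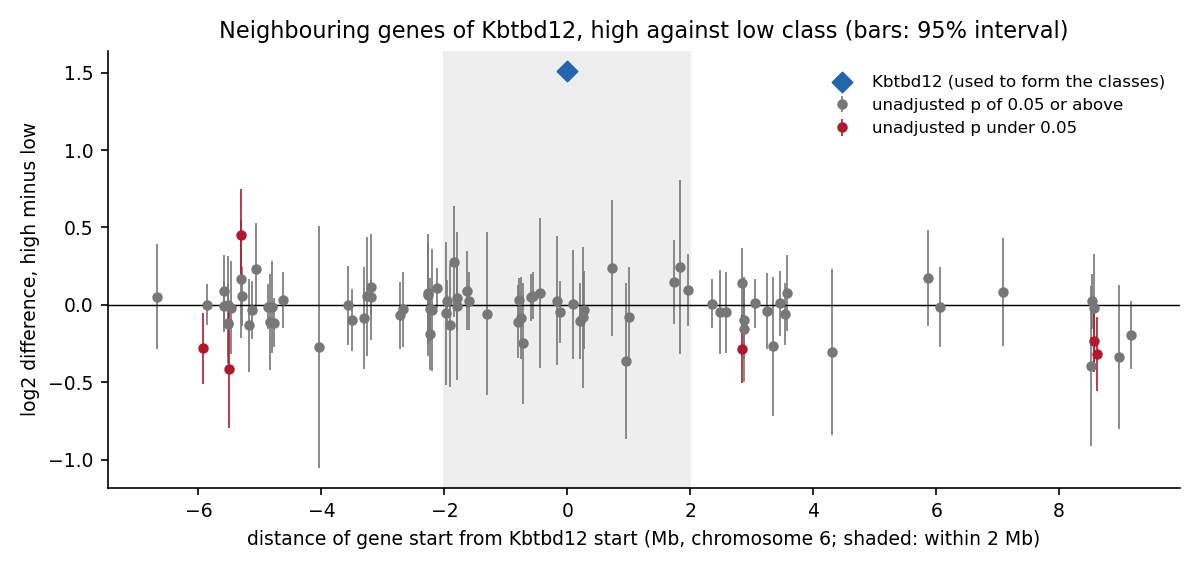
Difference between the classes (log2, high minus low, vertical axis) of genes within 10 Mb of Kbtbd12 against the distance of their start from that of Kbtbd12 (Mb, horizontal axis), with 95% intervals. The diamond marks Kbtbd12 at 1.51, the shaded band holds the 28 genes within 2 Mb, none of which has an unadjusted p under 0.05, and the 6 red genes with such a p lie outside the band.

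The nearest measured gene downstream of Kbtbd12 was Sec61a1, which encodes the channel of the endoplasmic reticulum translocon and starts 0.12 Mb away. It ranged from 4.69 to 5.07 log2 CPM in low mice (median 4.97) and from 4.48 to 5.24 in high mice (median 4.96), so the low range lay inside the high one, and the difference was -0.04 (SE 0.10, limma adjusted p = 0.999). On the other side Mgll, the monoglyceride lipase that completes the breakdown of triglyceride, starts 0.09 Mb away. Its level was 6.50 ± 0.27 log2 CPM in low mice (SD, n = 6) and 6.52 ± 0.42 in high mice (SD, n = 19). The difference was 0.0045 (95% interval -0.35 to 0.36), with a sign that turned under some settings. Chchd6, a subunit of the complex that shapes mitochondrial cristae, had the most negative difference of the 28, -0.36 (95% interval -0.87 to 0.14), from 1.72 to 2.80 log2 CPM in low and 1.23 to 3.43 in high mice. The GATA factor Gata2 differed by 0.08 (SE 0.24), the late-endosome GTPase Rab7 by 0.05 (SE 0.07), the helicase Ruvbl1 by 0.03 (SE 0.20) and the Kruppel-like factor Klf15 by 0.24 (SE 0.27), each by less than 1 SE.

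Further out the counts were closer to, or above, the background, and called genes were still absent. Between 2 and 10 Mb, 6 of 60 genes (10.0%) had an unadjusted p under 0.05, with 0 called (limma). One of these was higher in the high class, Mob1a, a scaffold of the Hippo pathway, at 0.45 (SE 0.15, adjusted p = 0.847). The other 5 had negative differences: Rtkn, Pole4, Chchd4, Arl6ip5 and Lmod3. Chchd4, which folds proteins imported into the mitochondrial intermembrane space, differed by -0.29 (SE 0.11) and Lmod3, which nucleates the actin of thin filaments, by -0.32 (SE 0.12), both at an adjusted p of 0.916 (limma). Beyond 10 Mb on chromosome 6, 16 of 344 genes (4.65%) had such a p. Over the whole chromosome it was 22 of 432 (5.09%), and on the other chromosomes 385 of 8311 (4.63%), with shares of single chromosomes from 2.29% to 7.46%. The genes named here between 2 and 10 Mb were chosen after their values were seen.

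Mndal was the gene called. It belongs to the interferon-inducible p200 family, whose members bind DNA and act in innate immunity, and it lies on chromosome 1 (GRCm38, 173849126 to 173942491, minus strand), away from Kbtbd12. The promoter window of 1 of its 2 RefSeq entries (GRCm38.p6, chr1:173880138-173880437, minus strand) is shown because Mndal is the gene called in the main fit. Capitals mark an E-box and the pattern of an interferon-stimulated response element (GAAA, any 2 bases, GAAA), which was found on either strand in 3.44% of the 32851 windows and in both Mndal entries. The window lies inside the longer GENCODE gene, whose start is at 173942491 and from which distances to Mndal were measured.
Mndal promoter: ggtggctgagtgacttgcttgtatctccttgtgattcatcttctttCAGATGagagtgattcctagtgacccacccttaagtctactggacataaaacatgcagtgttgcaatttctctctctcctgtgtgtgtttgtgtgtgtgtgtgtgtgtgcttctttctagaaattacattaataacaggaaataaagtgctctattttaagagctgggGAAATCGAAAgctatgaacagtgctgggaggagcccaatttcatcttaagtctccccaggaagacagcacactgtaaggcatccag
It shares no MEF2 core or TATAAA with the Kbtbd12 window, and the E-box is common to most promoters.

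Mndal ranged from 1.42 to 3.53 log2 CPM in low mice with a median of 2.31, and from 2.65 to 4.81 in high mice with a median of 3.74. The classes overlapped through Thymol 24, a low mouse at 3.53, and 12 of the 19 high mice lay above every low mouse. The means were 2.25 ± 0.78 (SD, n = 6) and 3.71 ± 0.54 (SD, n = 19), and the fitted difference was 1.52 (SE 0.27, 95% interval 0.98 to 2.06, limma adjusted p = 0.0302). The gene is a low one, with 18 to 205 reads per mouse. Its order among the low mice did not follow that of Kbtbd12: from the lowest to the highest Kbtbd12, Mndal was 1.45, 2.40, 1.42, 2.23, 3.53 and 2.47.

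The difference had the same sign in both treatments. In control mice it was 1.81 (SE 0.34, 7 high and 4 low mice), and the lowest high mouse (3.33) stood above the highest low mouse (2.47). Other genes also separated in control mice, among them Cox20 (5.70 above 5.46), and their share of all genes was not counted. In thymol mice, with only 2 low mice, the difference of Mndal was 1.09 (SE 0.41) and the classes overlapped. The interaction of class and treatment had an unadjusted limma p of 0.192 for Mndal. Over all genes the interaction was called for 0 genes (limma), with 329 (3.73%) at an unadjusted p under 0.05 and a smallest adjusted p of 0.9996.

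The call for Mndal was close to the threshold. The adjusted p was 0.0979 when reads recovered from the values were fitted with voom and 0.0647 when the level of Kbtbd12 entered as a number in place of the classes (limma). Leaving out 1 mouse at a time, it rose above 0.05 for 11 of the 25 mice, while the difference stayed between 1.34 and 1.90. The limma adjusted p was 0.0501 without Thymol 26, 0.0619 without Control 1, 0.0639 without Control 35, 0.0654 without Control 19, 0.0676 without Control 23 and 0.0691 without Control 18. It was 0.0752 without Control 10, 0.0757 without Control 15, 0.0829 without Control 31, 0.120 without Control 32 and 0.261 without Thymol 28. Mndal overlaps Ifi203, Ifi211 and a pseudogene on the same strand. Of the 31-base words in its transcript ends, 35.6% occur somewhere in transcripts of other genes, 17.2% in Ifi211, so its count is uncertain. Whether these words lie near the ends of those transcripts was not examined. Ifi203, an overlapping family member chosen after its values were seen, was 2.47 ± 0.29 log2 CPM in low and 2.65 ± 0.55 in high mice, a difference of 0.14 (SE 0.23, limma adjusted p = 0.999).

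Next in order of p were 3 genes that missed the threshold, all with higher values in the high class, and they were chosen after their values were seen. Cox20, an assembly factor for cytochrome c oxidase, lies on chromosome 1 about 4.38 Mb from Mndal. It ranged from 4.93 to 5.72 log2 CPM in low mice (median 5.19) and from 5.36 to 6.12 in high mice (median 5.84). The classes overlapped, with 12 of 19 high mice above every low mouse, and the difference was 0.56 (SE 0.11, limma adjusted p = 0.0588). As for Mndal, the low mouse with the highest Cox20 was Thymol 24 and the high mouse with the lowest was Thymol 9. Of the words in the transcript end of Cox20, 28.8% also occur in Cox20b, and the gene overlaps Hnrnpu on the other strand.

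Ptpn2, a tyrosine phosphatase that restrains JAK and STAT signalling, ranged from 2.53 to 3.28 log2 CPM in low mice and from 2.99 to 3.98 in high mice, with 15 of 19 high mice above every low mouse. The difference was 0.64 (SE 0.13, limma adjusted p = 0.0914), at 0.60 in control and 0.71 in thymol mice. Gadd45g, a stress-inducible regulator of growth arrest, ranged from 4.50 to 6.03 in low mice and from 5.20 to 7.09 in high mice. Its difference was 1.01 (SE 0.21, limma adjusted p = 0.0914), at 1.35 (SE 0.26) in control mice and 0.51 (SE 0.31) in thymol mice, and the interaction had an unadjusted p of 0.0482 and an adjusted p of 0.9996.

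**Figure D3:**
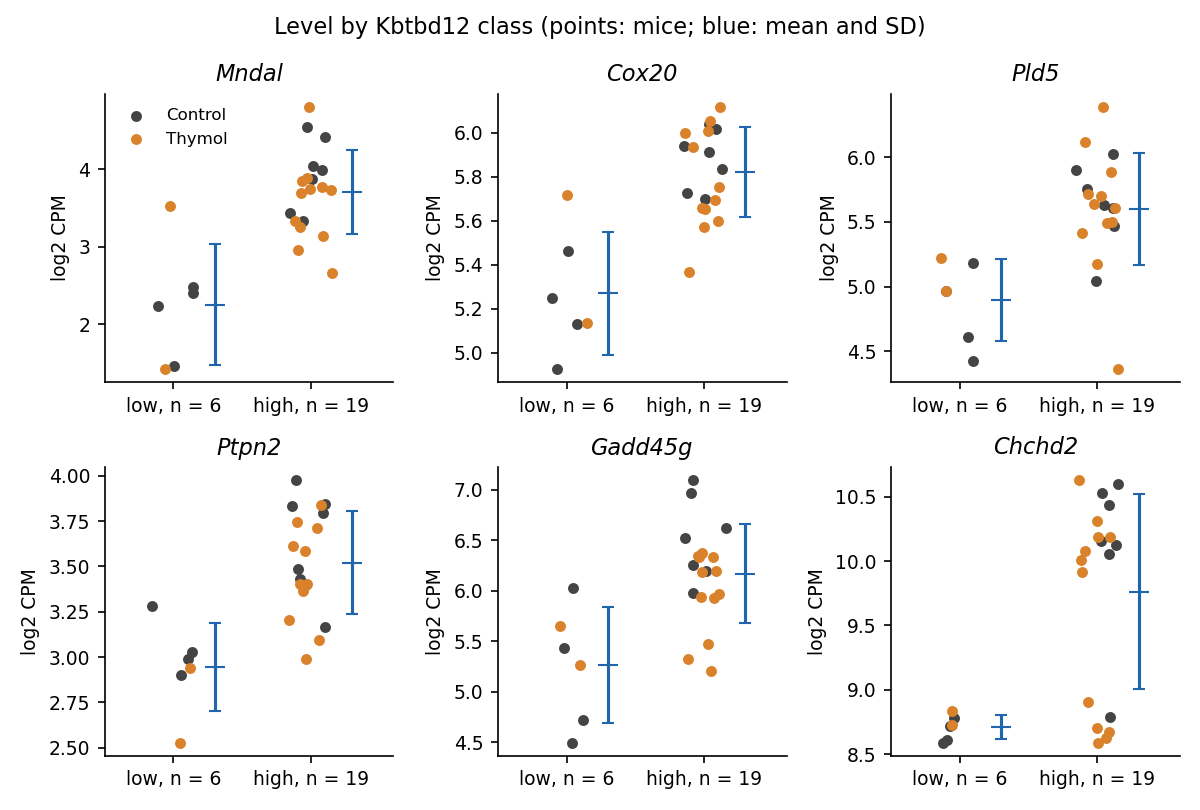
Levels (log2 CPM, vertical axes) of 6 genes by Kbtbd12 class, with each point a mouse (grey control, orange thymol) and the mean and SD in blue. Mndal is higher in the high class with 1 low mouse inside the high range, and Chchd2 falls at 2 levels within the high class while all low mice sit at the lower one.

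Around Mndal, a window chosen after the values were seen, 9 of 46 other genes within 5 Mb (19.6%) had an unadjusted p under 0.05, against 4.66% of all genes, with 5 higher and 4 lower in the high class and 0 called (limma). The genes named from it were also chosen after their values were seen. Pld5, a phospholipase D relative without known enzyme activity, lies 2.33 Mb from Mndal and ranged from 4.43 to 5.22 log2 CPM in low mice and from 4.36 to 6.39 in high mice. Of the high mice, 16 lay above every low mouse and Thymol 11 lay below them all. Its difference was 0.70 (SE 0.18, limma adjusted p = 0.605). Hnrnpu differed by 0.03 (SE 0.06), and Fh1, the fumarase between Mndal and Pld5, by 0.09 (SE 0.08).

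Chchd2, a small mitochondrial protein of the intermembrane space, gave a pattern of 2 levels. All 6 low mice lay between 8.59 and 8.83 log2 CPM. Of the high mice, 6 lay at 8.59 to 8.91 and 13 at 9.91 to 10.6, with no mouse between, and both the gene and this split were chosen after the values were seen. The upper level was found in 6 of 7 high control mice and in 7 of 12 high thymol mice. The fitted difference was 1.17 (SE 0.28, limma adjusted p = 0.382), and 63.2% of the words in its transcript ends are shared with other genes, 48.7% with Zbed5, and it overlaps Phkg1 on the same strand. Within 5 Mb of it, 4 of 32 genes (12.5%) had an unadjusted p under 0.05 and 0 were called (limma).

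Genes with lower values in the high class were also short of the threshold, and those named here were chosen after their values were seen. Dennd5b, an activator of Rab GTPases, had the smallest p of them. It lies on chromosome 6 but 60.5 Mb from Kbtbd12, and ranged from 3.57 to 3.99 log2 CPM in low mice and from 2.54 to 3.61 in high mice. Of the high mice, 18 of 19 lay below every low mouse, and the difference was -0.58 (SE 0.13, limma adjusted p = 0.262), with -0.56 in control and -0.61 in thymol mice. Dnmt3a, the de novo DNA methyltransferase, ranged from 6.32 to 6.62 in low mice and from 5.75 to 6.53 in high mice, a difference of -0.31 (SE 0.08, limma adjusted p = 0.642). Tmem232, Zfp9 and Sbno1 followed at -0.77, -0.64 and -0.23, each at a limma adjusted p of 0.658.

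No listed relative of Kbtbd12 was called. Of 62 kelch, BTB and cullin-3 ligase genes listed, 42 were in the table, 0 were called and 1 had an unadjusted p under 0.05 (2.38%, limma), with a median difference of -0.03. That gene was Klhl7, at 4.24 to 4.79 log2 CPM in low mice and 4.02 to 4.66 in high mice, a difference of -0.21 (SE 0.10, adjusted p = 0.999). Klhl41, which binds nebulin in the sarcomere, ranged from 8.06 to 8.56 in low mice and from 8.22 to 8.86 in high mice, a difference of 0.13 (SE 0.08). The next genes were chosen after their values were seen. Klhl31, the listed gene with the most reads, differed by 0.02 (SE 0.09), Klhl40 by 0.08 (SE 0.11), Cul3, the scaffold, by -0.04 (SE 0.07) and Nedd8, the modifier that switches cullins on, by 0.02 (SE 0.05). The atrophy ligases and FoxO genes had 1 of 29 (3.45%) at such a p, Foxo3 at 0.24 (SE 0.12).

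Among 17 lists, the glucocorticoid-responsive and metallothionein genes held the highest share at an unadjusted p under 0.05, 7 of 19 (36.8%, 6 higher and 1 lower, 0 called, limma), against 4.66% of all genes. The median difference of the list was 0.31, and 17 of 19 differences were positive, against 4288 of 8828 over all genes. The mean level over this list was 5.04 to 5.48 log2 CPM in low mice and 5.06 to 6.67 in high mice, so the classes overlapped. The glutamine synthetase Glul ranged from 7.06 to 7.71 log2 CPM in low mice (median 7.41) and from 6.90 to 9.38 in high mice (median 7.83), a difference of 0.61 (SE 0.21, adjusted p = 0.911). Pdk4, the kinase that turns pyruvate dehydrogenase off, ranged from 4.98 to 7.01 in low and from 5.05 to 7.79 in high mice, a difference of 0.76 (SE 0.27, adjusted p = 0.916). The classes overlapped in both genes.

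The others of the 7 were the kinase Sgk1 at 0.37, the transcription factor Cebpd at 0.65, the clock gene Per1 at 0.66, the metallothionein Mt2 at 0.74 and Nr3c1, the glucocorticoid receptor itself, at -0.18, of which Sgk1, Cebpd and Mt2, like Pdk4, were chosen after their values were seen. Nr3c1 ranged from 5.88 to 6.23 log2 CPM in low mice and from 5.39 to 6.08 in high mice. A single high mouse, Control 19, held the highest value of all mice for Glul, Pdk4, Sgk1 (7.32) and Per1 (5.90). The count of 7 became 4 without Control 15, 4 with no treatment term and 4 with Kbtbd12 as a number, and it ran from 4 to 9 over the mice left out in turn.

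**Figure D4:**
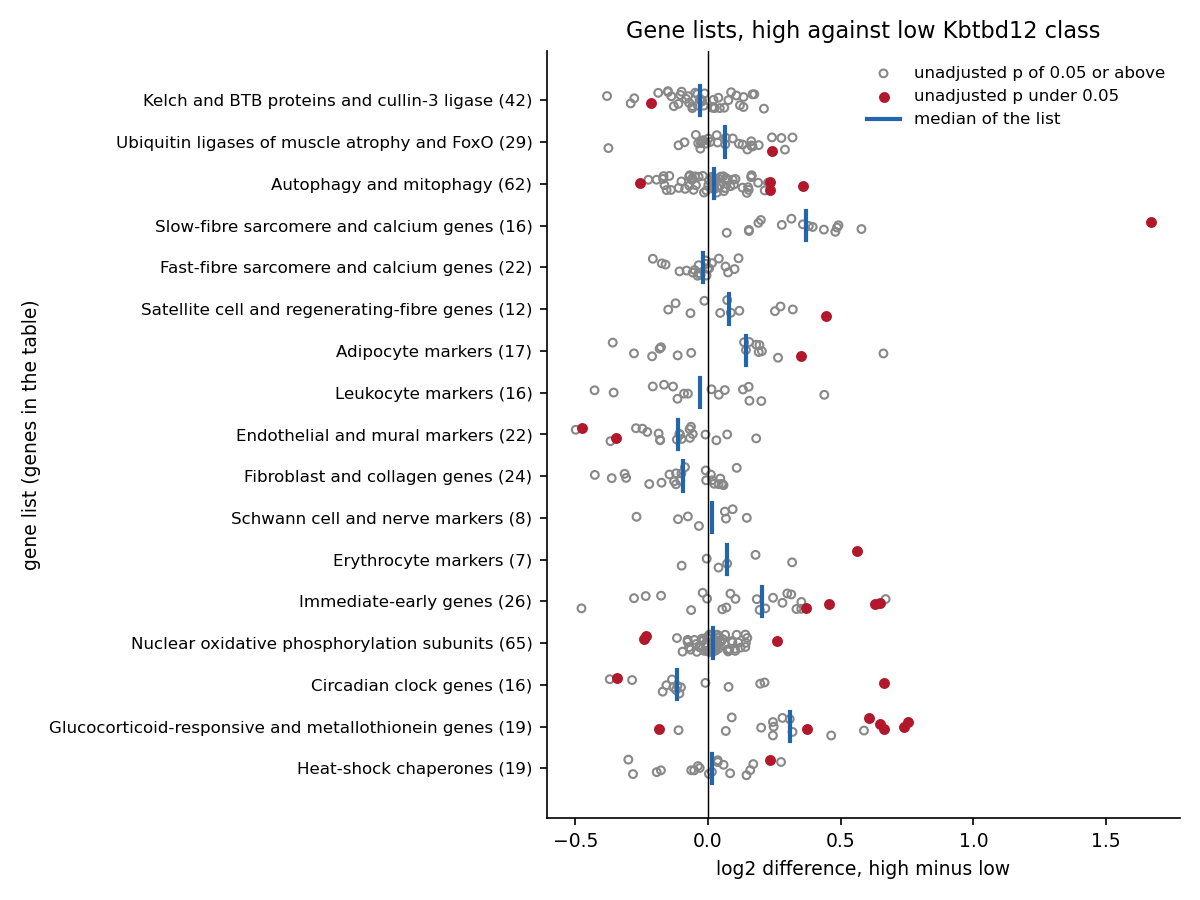
Differences (log2, high minus low, horizontal axis) of the genes of 17 lists, with the number in the table after each name, red for an unadjusted p under 0.05 and a blue bar at the median of the list. The glucocorticoid-responsive list has 7 red genes of 19 and a median of 0.31, the kelch list has 1 of 42 and a median of -0.03.

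Immediate-early genes, which share 2 members with the glucocorticoid list, had 4 of 26 at such a p (15.4%), all higher, with a median difference of 0.21, against 4.66% of all genes in either direction and 2.48% in that one. Zfp36, which destabilises messages with AU-rich elements, had the smallest p of them at 0.63 (SE 0.25, limma adjusted p = 0.953). Circadian clock genes had 2 of 16 (12.5%), Per1 and Hlf (-0.34, SE 0.13). Autophagy and mitophagy genes had 4 of 62 (6.45%) with a median of 0.02. Nbr1, a cargo receptor of selective autophagy, led them at 4.55 to 5.04 log2 CPM in low mice and 4.59 to 5.402 in high mice, a difference of 0.36 (SE 0.10, limma adjusted p = 0.658). Nuclear oxidative phosphorylation genes had 3 of 65 (4.62%) and a median of 0.02, and heat-shock chaperones 1 of 19 (5.26%) and a median of 0.01.

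Muscle fibre genes were not called. In the slow-fibre list, 16 of 16 differences were positive with a median of 0.37, and 1 gene (6.25%, against 4.66% of all genes) had an unadjusted p under 0.05: Sln, a peptide that inhibits the calcium pump, at 0.45 to 3.54 log2 CPM in low mice and 1.09 to 6.12 in high mice, a difference of 1.67 (SE 0.60, limma adjusted p = 0.916). The mean level over this list was 5.75 to 7.70 in low mice and 4.02 to 8.27 in high mice, so the low range lay inside the high one. The fast-fibre list had 0 of 22 and a median of -0.02. Myh7, the slow myosin, averaged 7.77 ± 0.97 log2 CPM in low mice (SD, n = 6) and 8.06 ± 1.92 in high mice (SD, n = 19), a difference of 0.44 (SE 0.75).

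Markers of other cell types were compared in the same way. Of 22 endothelial and mural genes, 3 differences were positive, a lower share than over all genes, and the median was -0.11. The 3 were Des (mean 11.5 log2 CPM in low and 11.6 in high mice), Fabp4 and Robo4. How specific the list is to these cells in muscle was not tested. An unadjusted p under 0.05 was found for 2 of the 22 (9.09%, against 4.66% of all genes): Cdh5, the cadherin of endothelial junctions, at -0.35 (SE 0.11, limma adjusted p = 0.847), and Myh11, the smooth muscle myosin, chosen after its values were seen, at -0.47 (SE 0.23). The mean level over these markers was 4.85 to 5.15 log2 CPM in low mice and 4.52 to 5.11 in high mice, and the part of these cells in the other differences was not tested. Fibroblast and collagen genes had 0 of 24 with a median of -0.09, leukocyte markers 0 of 16 with -0.03 and Schwann cell markers 0 of 8 with 0.01. Adipocyte markers had 1 of 17 at such a p (5.88%, Plin4, 0.35, SE 0.15), erythrocyte markers 1 of 7 (14.3%, Hba-a1, 0.56, SE 0.23) and satellite cell and regenerating-fibre genes 1 of 12 (8.33%, Chrna1, 0.44, SE 0.19). In that order, the list medians were 0.14, 0.07 and 0.08, with 10 of 17, 5 of 7 and 8 of 12 differences positive. With the levels of the slow-fibre, adipocyte and leukocyte lists as covariates, the difference of Mndal was 1.47 (limma adjusted p = 0.0266).

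Some genes with a wide spread over the 25 mice overlapped between the classes. Ppp1r1a, an inhibitor of protein phosphatase 1, ranged from -0.40 to 5.20 log2 CPM in low mice and from -0.07 to 5.41 in high mice. No mouse of either class lay between 1.32 and 4.62 for this gene. Vcp, a segregase of ubiquitinated proteins, ranged from 2.40 to 6.72 and from 1.23 to 6.79, with no mouse between 3.36 and 6.29. The differences were 0.86 (SE 1.02) for Ppp1r1a, 0.87 (SE 0.78) for Vcp and 0.67 (SE 0.49) for Fos, the immediate-early transcription factor, all at a limma adjusted p of 0.999. Fos ranged from 0.57 to 2.66 log2 CPM in low mice and from -1.33 to 3.68 in high mice. Of the 19 high mice, 7 lay above every low mouse for Fos and 2 lay below them all.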

How the data were processed

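Polyadenylated RNA of gastrocnemius from 25 SAMP8 mice was sequenced with QuantSeq 3′ libraries. According to the labels and the methods, the authors used STAR 2.5.3 to map reads to GRCm38 and HTSeq 0.6.1 to count them by gene, removed genes with few reads and scaled libraries with TMM factors; how strand was handled in counting is not given in the sources used here. The deposited values are log2 CPM for 8829 gene symbols. The table was read as deposited, every gene of it had at least 32 reads in 6 mice, and 0 columns were left unmapped.

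Mice were split at a Kbtbd12 log2 CPM of 5.4. The threshold, the gene lists and the genes described were chosen with earlier results of these data known. The 8828 other genes were fitted on their log2 values (limma 3.58.1, R 4.3.3), with treatment and class as terms, empirical Bayes moderation with trend and Benjamini-Hochberg adjustment at 0.05. The study's own test, edgeR on counts, was not used because the table holds log2 values. Intervals are 95% intervals. Since the labels give no culture, litter or run, p-values measure the spread between mice as labelled.

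Reads were recovered from the spacing of low values, and 100% of values lay within 0.01 of a whole read. Depth is their sum over the genes of the table, 4463818 to 9463418 per mouse. Libraries were made with PCR. The sources used here mention no molecular identifiers, and whether PCR copies were removed is not given. Of the symbols, 8744 were given a position from GENCODE M21, 131 through an older symbol, and 85 were not. Promoter windows are from RefSeq (GRCm38.p6). Transcript ends are the last 500 bases of each protein-coding transcript of the gene. Their words were searched along the whole transcripts of all other genes.

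Genes were named by a rule: Kbtbd12, called genes, genes within 2 Mb, the smallest p in each direction per list, and Ppp1r1a, Myh7, Fos and Vcp. Not all are reported, and the text marks the others as picked with their values in view. Permutation and Fisher tests used scipy 1.17.1, numpy 2.4.6 and pandas 2.3.3 or R, and figures matplotlib 3.10.9. The fit was tested on simulated data. Alternatives were quantile normalization, median centring, the top 75% of genes by mean, voom, no treatment term, Kbtbd12 as a number, marker levels as covariates, a block, robust moderation and each mouse left out. Differences within each treatment, and the count for the glucocorticoid list under these settings, were added after seeing the data.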

Additional observations from a re-analysis of the deposited data

Results flagged for a closer look

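In the low class, Vcp stood at 6.72 log2 CPM in Control 15, and the nearest of the other 5 low mice was at 2.96. The gap was 0.87 of the range of the class, above the 95% critical value of Dixon's test for 6 mice. Chance flags about 1 in 20 groups, and 20 genes were screened in this way. In the high class, Vcp lay either at 1.23 to 3.36 or at 6.29 to 6.79, with no mouse between. The value of Control 15 thus lay within the upper level seen in the other class.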

How the results depend on the processing

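The count of 1 called gene became 2 when only the top 75% of genes by mean were fitted, with no treatment term and with robust moderation, when Cox20 joined Mndal, and 0 with voom and with Kbtbd12 as a number. Leaving out 1 mouse at a time gave 0 to 3 called genes. Cox20 was also called without Thymol 9 (adjusted p = 0.0164) and Thymol 24 (0.00345), Gadd45g without Thymol 24 (0.0440) and Ptpn2 without Control 14 (0.0344), by limma. Called genes on chromosome 6 were 0 in every setting run. The number of genes with classes that do not overlap ran from 0 to 1 over the mice left out (4833418N02Rik without Control 23, Mndal without Thymol 24, Peg13 without Control 31, and Dennd5b without Control 32 or Thymol 34). The count of genes at an unadjusted p under 0.05 ranged from 313 to 497 over the alternatives, and the interaction was called for 0 genes in 3 alternatives.

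Of the 15 genes followed under the alternatives, 3 with differences near 0 changed sign. Mgll was -0.0038 with quantile normalization, -0.0030 with median centring, -0.017 with Kbtbd12 as a number, -0.068 with marker covariates and -0.011 within thymol mice, and -0.076 to 0.085 over the mice left out. Within thymol mice Sec61a1 was 0.073 and Ifi203 -0.0039. With the first label number as a replicate block (consensus correlation -0.043), Mndal was 1.504 (limma adjusted p = 0.0339) and the count of called genes was 1. Mice of different treatments with the same first number had a mean correlation of deviations of -0.0021 (9 pairs), so the numbers were not taken as pairs. The low class holds 6 mice, of which 2 had thymol, so differences within thymol mice rest on few animals. The causes of these changes were not tested.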
